A study of Homo sapiens with 6 samples.

Results

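Integrin and laminin genes were taken as every protein-coding gene whose symbol starts with ITGA, ITGB, LAMA, LAMB or LAMC followed by a chain number or letter. Of the 28395 genes counted, 38 were members, 26 for integrin chains and 12 for laminin chains. Of these, 32 had enough reads to be tested, 21 integrin and 11 laminin genes. The cells were A375, an established human melanoma line, grown in RPMI medium and treated for 72 h in 3 groups of 2 libraries. Vehicle cells received 0.01% DMSO, another group received 1 µM palbociclib, which inhibits the cell cycle kinases CDK4 and CDK6, and the last received 500 nM GSK3326595, which inhibits PRMT5, an enzyme that methylates arginines. Total RNA was depleted of ribosomal RNA before sequencing, and the counts per library ranged from 16589153 to 20842099.

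Integrins are cell surface receptors, each made of an alpha and a beta chain, that tie the extracellular matrix outside the cell to the actin cytoskeleton inside it. The alpha chain largely sets which ligand is bound, and several alpha chains share the beta chain ITGB1. Laminins are secreted trimers of an alpha, a beta and a gamma chain that form the scaffold of basement membranes, and they are bound by the integrin alpha chains ITGA3, ITGA6 and ITGA7. Melanoma cells meet laminin at the basement membrane below the epidermis and around vessels, and collagen and fibronectin in the dermis.

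Palbociclib and GSK3326595 left different patterns in these genes. With palbociclib, the collagen receptor chains ITGA1 and ITGA2, the laminin receptor chain ITGA7 and the laminin beta chains LAMB2 and LAMB3 rose. With GSK3326595, the laminin receptor chains ITGA3, ITGA6 and ITGB4 fell, along with ITGB3 and ITGB8 and the laminin alpha chains LAMA4 and LAMA5. ITGA2, ITGB7 and LAMB3 were the 3 members called higher with both inhibitors. ITGB8, LAMA4 and LAMA5 were the 3 members called higher with palbociclib and lower with GSK3326595.

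A gene is called here when its adjusted p from edgeR's quasi-likelihood test, by Benjamini and Hochberg's method over the 16381 genes tested, was under 0.05, and "rose" and "fell" are used for called genes only. Against DMSO, palbociclib raised 8 and lowered 1 of the 21 integrin genes tested, and raised 4 and lowered 0 of the 11 laminin genes. Over all genes tested that comparison called 39.5%, with 19.3% higher and 20.2% lower. The 13 members called are 40.6% of the 32 tested, a share near that of all genes. The count of laminin genes lower with palbociclib was also 0 at an unadjusted p under 0.05 in edgeR and 0 by DESeq2. The median log2 fold change was 0.20 for integrin genes, 0.31 for laminin genes and -0.02 for all genes. GSK3326595 raised 3 and lowered 5 integrin genes, and raised 1 and lowered 2 laminin genes. The 11 members called are 34.4% of the 32 tested, against 18.8% of all genes called, 8.58% higher and 10.2% lower. The medians were -0.07 for integrin genes and 0.09 for laminin genes. Each inhibitor was compared with the same DMSO libraries, so the contrasts share their controls.

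Several of these counts rest on single libraries. The count of 4 laminin genes higher with palbociclib was 2 without DMSO replicate 2, without palbociclib replicate 1 or without palbociclib replicate 2. Of the 3 integrin genes higher with GSK3326595, 1 was called without DMSO replicate 2, and the 2 laminin genes lower became 0 without DMSO replicate 1 and 1 without GSK3326595 replicate 2. The integrin genes lower with palbociclib were 3 without GSK3326595 replicate 2. With the replicate number as a block in the fit, the integrin genes lower with palbociclib were 4 and the laminin genes lower were 2. The same block gave 5 integrin genes higher, 8 integrin genes lower and 2 laminin genes higher with GSK3326595.

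**Figure D1:**
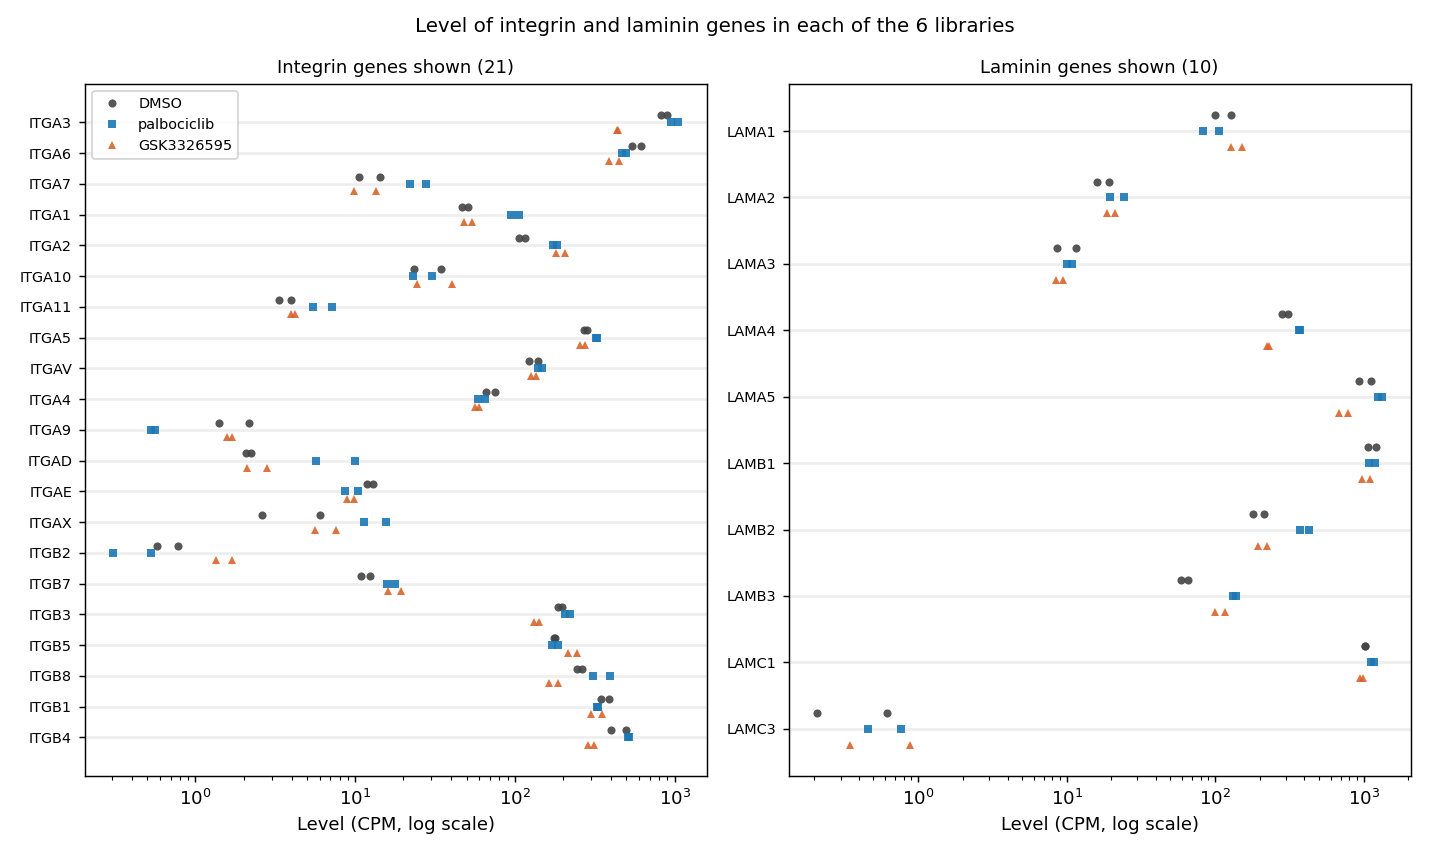
Level of the members described here in each library, in CPM on a log axis, with 21 integrin genes on the left and 10 laminin genes on the right; circles are DMSO, squares palbociclib and triangles GSK3326595. LAMB1, LAMC1 and LAMA5 lie furthest to the right among the laminin genes, and the palbociclib squares of ITGA1, ITGA7, ITGAD, LAMB2 and LAMB3 lie to the right of both DMSO circles.

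Levels are given as CPM, the reads of a gene scaled to a common library size adjusted by TMM, and between genes they are compared as CPM per kilobase of annotated exon. Per kilobase, the highest member in DMSO was LAMB1, the most widely expressed laminin beta chain, at 140.7 ± 12.6 (SD, n = 2). LAMC1, the gamma chain shared by most laminins, followed at 121.7 ± 0.136. ITGA6 at 88.1 ± 7.93, ITGA3 at 87.4 ± 5.17 and the laminin alpha chain LAMA5 at 71.7 ± 9.20 formed the next step, with ITGB4 at 65.97 ± 9.93 and ITGB1 at 61.02 ± 5.02 after them. Among integrins, ITGB3 at 43.5 ± 1.65 and ITGA5 at 36.7 ± 1.17 came next. Of the neighbours in this order, ITGA6 and ITGA3, LAMA5 and ITGB4, and ITGB4 and ITGB1 differed by less than the sum of their SDs, and the other pairs by more.

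At the other end, 6 members did not pass the filter on low counts. ITGA8, the renal and smooth muscle partner of ITGB1, had 1 read in all 6 libraries together. ITGAL and ITGAM, alpha chains of leukocytes, had at most 4 and 3 reads in a library. ITGA2B, the platelet fibrinogen receptor chain, had 2 to 10 reads, the epithelial chain ITGB6 0 to 7, and LAMB4 4 to 9. A count of 0 allows up to 3 reads, or 0.144 to 0.175 CPM depending on the library, which covers counting error only.

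Among the alpha chains that bind laminin, ITGA3 showed the largest fall with GSK3326595 of any member called in that comparison. ITGA3 stood at 892 and 820.4 CPM in DMSO, 1055 and 952 CPM with palbociclib, and 433 and 439 CPM with GSK3326595. The GSK3326595 libraries lay far below the other 4, and the palbociclib libraries lay above both DMSO libraries. The log2 fold change was -0.97 ± 0.103 (SE) with GSK3326595 (edgeR adjusted p = 8.49e-05). With palbociclib it was 0.23 ± 0.102 (edgeR adjusted p = 0.0932), or 0.00758 with the replicate number as a block and 0.0318 by DESeq2. ITGA6, which pairs with ITGB1 or ITGB4, was at 539 and 612 CPM in DMSO, 470.2 and 499 CPM with palbociclib, and 386 and 448 CPM with GSK3326595. All 4 inhibitor libraries were below both DMSO libraries. ITGA6 fell with GSK3326595 by 0.46 ± 0.107 on the log2 scale (edgeR adjusted p = 0.0111). ITGA6 was no longer called without DMSO replicate 2 (edgeR adjusted p = 0.0921) or without GSK3326595 replicate 1 (0.0534). For palbociclib the ITGA6 value was -0.25 ± 0.106 (edgeR adjusted p = 0.0819), which became 0.00254 with the block, 0.0258 with library totals, 0.0447 with only the groups compared and 0.0434 without GSK3326595 replicate 2.

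ITGA7, the laminin receptor chain best known from muscle, moved with palbociclib instead. It stood at 14.4 and 10.5 CPM in DMSO, 27.9 and 22.1 CPM with palbociclib, and 13.5 and 9.79 CPM with GSK3326595. Both palbociclib libraries were above all 4 others, and the DMSO and GSK3326595 libraries overlapped. The rise was 2.01-fold, a log2 fold change of 1.01 ± 0.183 (edgeR adjusted p = 0.00104).

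ITGB4 is the beta chain that joins ITGA6 in hemidesmosomes, the anchoring junctions of epithelia. It was at 494 and 399 CPM in DMSO, 508 and 518 CPM with palbociclib, and 312 and 288 CPM with GSK3326595. Its DMSO libraries lay wide apart, and both GSK3326595 libraries were below them. ITGB4 fell with GSK3326595 by 0.57 ± 0.110 on the log2 scale (edgeR adjusted p = 0.00405). With palbociclib the value was 0.20 ± 0.109 (edgeR adjusted p = 0.158), or 0.0126 with the replicate block and 0.04 without DMSO replicate 1, where the log2 fold change was 0.36. ITGB1, the partner of most alpha chains named here, was at 346 and 388 CPM in DMSO, 328 and 332 CPM with palbociclib, and 300.1 and 350.4 CPM with GSK3326595. Its log2 fold changes were -0.15 ± 0.101 and -0.17 ± 0.101 (edgeR adjusted p = 0.247 and 0.259), the latter 0.0431 with the block.

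Of the 4 collagen receptor alpha chains, 3 rose with palbociclib, beside 19.3% of all genes tested. A share of so few genes was not tested. ITGA1, a receptor for basement membrane collagen, stood at 47.0 and 50.8 CPM in DMSO, 94.2 and 107 CPM with palbociclib, and 53.8 and 47.8 CPM with GSK3326595. The palbociclib libraries were apart from the other 4, which overlapped. ITGA1 rose 2.06-fold with palbociclib, a log2 fold change of 1.04 ± 0.0994 (edgeR adjusted p = 8.44e-06), and with GSK3326595 the value was 0.06 ± 0.101 (edgeR adjusted p = 0.749). ITGA2, a receptor for fibrillar collagen that also binds laminin, was at 107 and 115 CPM in DMSO, 174 and 182 CPM with palbociclib, and 182 and 207 CPM with GSK3326595. All 4 inhibitor libraries were above DMSO, and the inhibitor groups overlapped. ITGA2 rose 1.61-fold with palbociclib (log2 0.69 ± 0.091, edgeR adjusted p = 0.000108) and 1.75-fold with GSK3326595 (log2 0.81 ± 0.0912, edgeR adjusted p = 0.000126). ITGA11, a fibrillar collagen receptor of fibroblasts, was low, at 3.96 and 3.33 CPM in DMSO, 5.43 and 7.11 CPM with palbociclib, and 4.20 and 3.96 CPM with GSK3326595. Its rise with palbociclib was 0.79 ± 0.218 on the log2 scale (edgeR adjusted p = 0.0132) and was lost without DMSO replicate 2 (0.0818) or palbociclib replicate 2 (0.169). ITGA10, a chain of cartilage, ranged from 23.0 to 40.5 CPM, with all 3 groups overlapping and no call in either comparison against DMSO.

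ITGA1 and ITGA2 are neighbours on chromosome 5, with 30.1 kb from the end of ITGA1 to the start of ITGA2 on GRCh38. Of the pair, only ITGA2 was called with GSK3326595. Their promoter stretches are shown to set the sequences upstream of each gene's start side by side. The letters are from RefSeq on GRCh38.p14, 5′ to 3′ on the plus strand, up to the first base annotated as exon. Capitals mark the GC box, GGGCGG on either strand, the letters bound by SP1 family factors. The ITGA1 stretch is chr5:52787666-52787895 and the ITGA2 stretch is chr5:52989102-52989325. PELO, another counted gene, has the same annotated start and strand as ITGA1, so the ITGA1 stretch lies before both. PELO stood between 49.25 and 66.15 CPM, shares 2.56% of the ITGA1 exon bases, and was not called against DMSO (edgeR adjusted p = 0.234 and 0.701).
ITGA1: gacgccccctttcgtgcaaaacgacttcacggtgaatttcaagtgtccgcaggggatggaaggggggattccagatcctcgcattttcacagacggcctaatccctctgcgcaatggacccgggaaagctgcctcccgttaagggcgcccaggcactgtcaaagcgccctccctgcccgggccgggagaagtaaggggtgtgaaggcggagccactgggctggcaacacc
ITGA2: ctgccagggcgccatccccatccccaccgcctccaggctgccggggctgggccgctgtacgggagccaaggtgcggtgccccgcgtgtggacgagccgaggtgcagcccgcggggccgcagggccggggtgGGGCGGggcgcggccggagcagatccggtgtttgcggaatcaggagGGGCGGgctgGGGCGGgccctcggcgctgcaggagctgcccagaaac
The ITGA2 stretch held 3 GC boxes, starting 119, 73 and 63 bases before the start, and these letters are not in the ITGA1 stretch. G and C made up 77.2% of the ITGA2 stretch and 61.7% of the ITGA1 stretch, beside a median of 58% over all windows. Of all 35116 RefSeq promoter windows of 250 bases, 42.6% held a GC box, as did 17 of the 33 member starts with a sequence, which cover 26 of the 38 members. A match describes the letters and not a bound site.

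ITGA5 and ITGAV, receptor chains for fibronectin and vitronectin that read the short arginine-glycine-aspartate motif, moved little. ITGA5 was at 272 and 284 CPM in DMSO, 326 and 321 CPM with palbociclib, and 257 and 273 CPM with GSK3326595. The palbociclib libraries were above the rest, with a log2 fold change of 0.22 ± 0.085 (edgeR adjusted p = 0.059). That p was under the threshold with library totals (0.0176), DESeq2 (0.0455), a filter at 1 CPM (0.046), the replicate block (0.00506), only the groups compared (0.0465) or without GSK3326595 replicate 2 (0.049). ITGAV ranged from 123 to 148 CPM over the 6 libraries and was not called in any comparison. ITGA4, which binds the endothelial protein VCAM1 and fibronectin, was at 65.5 and 75.4 CPM in DMSO, 65.1 and 59.2 CPM with palbociclib, and 55.9 and 59.9 CPM with GSK3326595. Its values were -0.18 ± 0.0983 and -0.28 ± 0.0991 (edgeR adjusted p = 0.16 and 0.0664), or 0.042 and 0.00327 with the block. For GSK3326595, ITGA4 was also called with library totals (0.0486) and without DMSO replicate 1 (0.0483). ITGA9, which binds tenascin and osteopontin, was the integrin gene called lower with palbociclib. It stood at 2.17 and 1.41 CPM in DMSO, 0.559 and 0.528 CPM with palbociclib, and 1.69 and 1.57 CPM with GSK3326595, a log2 change of -1.70 ± 0.383 with palbociclib (edgeR adjusted p = 0.00407).

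The beta chains that pair with ITGAV and passed the filter were all 3 called with GSK3326595, ITGB3 and ITGB8 lower and ITGB5 higher. Over all genes tested that comparison called 18.8%, with 8.58% higher and 10.2% lower, and a share of so few genes was not tested. ITGB3, the vitronectin receptor chain associated with invasive melanoma, was at 196 and 186 CPM in DMSO, 220.1 and 205 CPM with palbociclib, and 142 and 132 CPM with GSK3326595. The 3 groups did not overlap. ITGB3 fell with GSK3326595 by 0.48 ± 0.0862 on the log2 scale (edgeR adjusted p = 0.00274), and with palbociclib the value was 0.15 ± 0.0853 (edgeR adjusted p = 0.169, or 0.0418 with the block). ITGB5, another vitronectin receptor chain, was at 179 and 176 CPM in DMSO, 187 and 172 CPM with palbociclib, and 217 and 244 CPM with GSK3326595. The GSK3326595 libraries were the highest 2 of the 6. ITGB5 rose with GSK3326595 by 0.38 ± 0.0904 on the log2 scale (edgeR adjusted p = 0.0136), and was no longer called without DMSO replicate 1 (0.0813), DMSO replicate 2 (0.0745) or GSK3326595 replicate 2 (0.08). ITGB8, which with ITGAV activates latent TGF-beta, was at 264 and 245 CPM in DMSO, 393 and 307 CPM with palbociclib, and 164 and 186 CPM with GSK3326595. Its groups were apart, palbociclib above DMSO and GSK3326595 below it. ITGB8 rose with palbociclib by 0.46 ± 0.117 (edgeR adjusted p = 0.00805), a call lost without palbociclib replicate 1 (log2 0.28, edgeR adjusted p = 0.14), and fell with GSK3326595 by 0.54 ± 0.118 (edgeR adjusted p = 0.0085).

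Integrin chains known from leukocytes were read at low levels. ITGAX, an alpha chain of dendritic cells and macrophages, was at 6.02 and 2.60 CPM in DMSO, 15.5 and 11.3 CPM with palbociclib, and 7.63 and 5.59 CPM with GSK3326595. ITGAD, its neighbour 10.3 kb away on chromosome 16, was at 2.23 and 2.08 CPM in DMSO, 9.90 and 5.72 CPM with palbociclib, and 2.80 and 2.10 CPM with GSK3326595. For each gene both palbociclib libraries lay above the other 4. ITGAX rose with palbociclib by 1.65 ± 0.302 on the log2 scale (edgeR adjusted p = 0.00109) and ITGAD by 1.85 ± 0.292 (edgeR adjusted p = 0.000383). With GSK3326595 the ITGAX value was 0.63 ± 0.322 (edgeR adjusted p = 0.2), or 0.00601 with the block and 0.0126 without DMSO replicate 1, where its log2 fold change was 1.32. ITGB2, the beta chain that both need to reach the cell surface, was at 0.781 and 0.573 CPM in DMSO, 0.305 and 0.528 CPM with palbociclib, and 1.69 and 1.34 CPM with GSK3326595. ITGB2 was not called with palbociclib (edgeR adjusted p = 0.281) or GSK3326595 (log2 1.16 ± 0.399, edgeR adjusted p = 0.0625, or 0.0216 with the block).

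Of 14 leukocyte markers, 4 passed the filter, MS4A1 and TYROBP were at 0 in all 6 libraries, and the 10 not tested stayed at or below 0.874 CPM. PTPRC, the pan-leukocyte marker CD45, was at most 0.117 CPM. The summed level of the list ranged from 90.5 to 97.6 CPM in DMSO, 84.7 to 92.1 CPM with palbociclib and 71.9 to 75.4 CPM with GSK3326595, most of it CD68. LYZ, the lysozyme gene, rose with palbociclib as ITGAX and ITGAD did, from 4.63 and 4.53 CPM to 14.1 and 13.6 CPM. CD68 fell with both inhibitors (log2 -0.28 and -0.42, edgeR adjusted p = 0.0239 and 0.00728). Its palbociclib call was lost by DESeq2 (DESeq2 adjusted p = 0.0703). That call was also lost without either DMSO library (log2 -0.22 and -0.32) or either palbociclib library (-0.36 and -0.21). The GSK3326595 call of CD68 was lost without DMSO replicate 1 (log2 -0.39). Of 8 platelet markers, GP9, GP1BB, PF4 and PPBP were at 0 in all 6 libraries, and GP1BA rose with palbociclib (log2 0.97, edgeR adjusted p = 0.003) and with GSK3326595 (1.03, 0.0059). SOX10, MITF, MCAM and CSPG4, among 14 markers of melanoma and the melanocyte lineage, were present in all 6. Of the differentiation markers, TYR and DCT were at 0 in both DMSO libraries, and PMEL, MLANA and TYRP1 passed the filter. S100B and S100A1 rose with palbociclib (log2 1.66 and 1.16, edgeR adjusted p = 3.15e-05 and 0.00451) and AXL fell (-0.85, 3.06e-05). MITF and NGFR rose with GSK3326595 (log2 0.49 and 0.61, edgeR adjusted p = 0.00324 and 0.0466). The NGFR call was lost by DESeq2 (DESeq2 adjusted p = 0.244) and with library totals (edgeR adjusted p = 0.0514). It was also lost without either DMSO library (log2 0.50 and 0.70) and without GSK3326595 replicate 2, where the log2 fold change was 0.18. Of 13 endothelial and fibroblast markers, 9 were tested, and their summed level ranged from 43.1 to 53.1 CPM in DMSO, 37.5 to 44.6 CPM with palbociclib and 58.9 to 66.6 CPM with GSK3326595. With palbociclib 2 of the 9 rose, KDR (log2 3.68, edgeR adjusted p = 4.15e-05) and LUM (2.10, 6.54e-05). Another 4 fell, among them COL1A1 (log2 -1.07, edgeR adjusted p = 9.48e-05) and PDGFRB (-0.64, 0.00805). The PDGFRB call was lost without DMSO replicate 1 or palbociclib replicate 2. KDR and COL1A1 rose with GSK3326595 (log2 2.49 and 1.05, edgeR adjusted p = 0.00451 and 0.000197), and 0 fell. Of 12 epithelial markers, 7 were tested, and EPCAM, CDH1 and TP63 were among the 5 left out by the filter. The epithelial list summed to 724.9 and 798.9 CPM in DMSO, 655.1 and 737.7 CPM with palbociclib, and 659.9 and 829.6 CPM with GSK3326595. With palbociclib the keratin gene KRT14 rose (log2 1.86, edgeR adjusted p = 7.98e-05), as LAMB3 did, and KRT8 fell (-0.36, 0.00734), a call lost without DMSO replicate 2 or either palbociclib library (0.0742, 0.0737 and 0.051). The part of LYZ and of these lists in the results was not tested. In bulk RNA, fewer cells of a type and less RNA per cell cannot be told apart.

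ITGB7 and ITGAE, the chains of the receptor that holds lymphocytes to epithelium, share exon bases with genes on the opposite strand. ITGB7 was at 12.4 and 10.8 CPM in DMSO, 15.8 and 17.7 CPM with palbociclib, and 19.4 and 16.1 CPM with GSK3326595. All 4 inhibitor libraries were above both DMSO libraries. It rose by 0.53 ± 0.142 with palbociclib (edgeR adjusted p = 0.0108) and 0.61 ± 0.143 with GSK3326595 (edgeR adjusted p = 0.0124) on the log2 scale. The palbociclib call was lost without DMSO replicate 2 (0.0702) or palbociclib replicate 2 (0.0964), and the GSK3326595 call without DMSO replicate 2 (0.082) or GSK3326595 replicate 1 (0.0515). Of its exon bases, 42.1% are also exon of ZNF740, which stood between 77.1 and 91.0 CPM and was not called in either comparison. ITGAE shares 6.41% of its exon bases with HASPIN, a mitotic kinase gene that fell with palbociclib by 0.89 and with GSK3326595 by 0.84 on the log2 scale (edgeR adjusted p = 0.000225 and 0.00114). ITGAE was at 11.8 and 13.0 CPM in DMSO, 8.58 and 10.5 CPM with palbociclib, and 9.79 and 8.91 CPM with GSK3326595. Its log2 values were -0.38 ± 0.155 and -0.41 ± 0.157 (edgeR adjusted p = 0.0686 and 0.0911), or 0.0174 and 0.0208 with the block, and 0.0498 with palbociclib without GSK3326595 replicate 2. The strand setting of the counting is not given in the sources used here, so the part of such neighbours in these counts was not tested. In all, 9 tested members share exon bases with another counted gene, and 51.6% of the exon bases of ITGB3 lie in the readthrough gene AC068234.1, which is not counted in these tables.

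**Figure D2:**
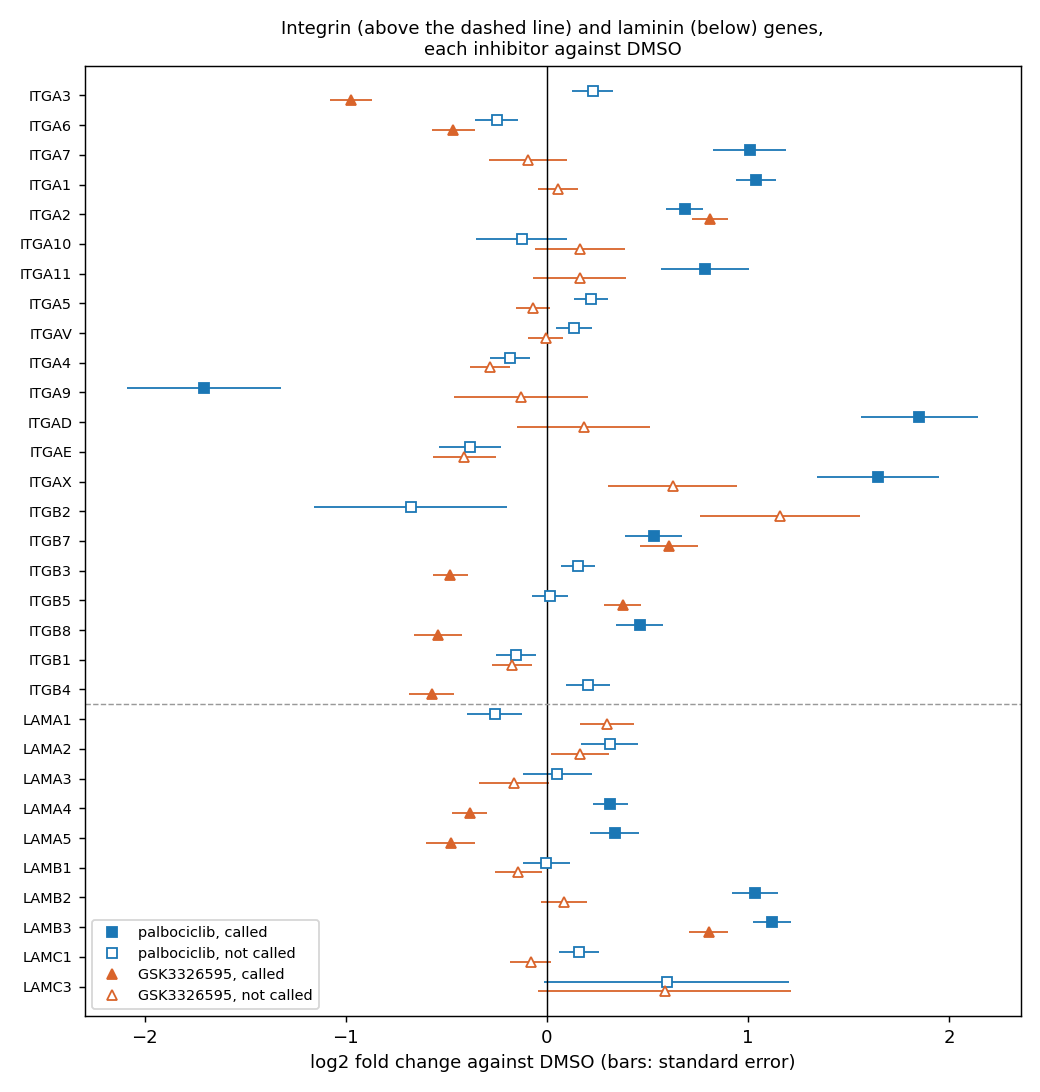
Log2 fold change against DMSO of the members described here, with bars of 1 standard error, for palbociclib (squares) and GSK3326595 (triangles); filled symbols are called at an adjusted p under 0.05, and laminin genes are below the dashed line. Filled symbols on both sides of 0 mark ITGB8, LAMA4 and LAMA5, and filled symbols to the right with both inhibitors mark ITGA2, ITGB7 and LAMB3.

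On the ligand side, LAMA5 was the main alpha chain, at 67.1% of the summed alpha chain level per kilobase in DMSO, followed by LAMA4, the alpha chain of vessel basement membranes, at 24.0%. LAMA5 was at 1118 and 932 CPM in DMSO, 1336 and 1254 CPM with palbociclib, and 786 and 685 CPM with GSK3326595. LAMA4 was at 309 and 283 CPM in DMSO, 372 and 365 CPM with palbociclib, and 230.3 and 223 CPM with GSK3326595. For both genes the 3 groups did not overlap, palbociclib above DMSO and GSK3326595 below. LAMA5 rose with palbociclib by 0.34 ± 0.121 (edgeR adjusted p = 0.0432) and fell with GSK3326595 by 0.48 ± 0.121 (edgeR adjusted p = 0.0177) on the log2 scale. LAMA4 rose by 0.32 ± 0.0870 (edgeR adjusted p = 0.0124) and fell by 0.38 ± 0.0875 (edgeR adjusted p = 0.0106). These calls are near the threshold. The palbociclib call of LAMA5 was lost with library totals (0.0523) and without DMSO replicate 2 (0.262), palbociclib replicate 1 (0.223) or palbociclib replicate 2 (0.115), and that of LAMA4 without the same 3 libraries (0.0947, 0.095 and 0.0726). The GSK3326595 call of LAMA5 was lost without DMSO replicate 1 (0.126) or GSK3326595 replicate 2 (0.0665), and that of LAMA4 without DMSO replicate 1 (0.0721).

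LAMA1, the alpha chain of embryonic basement membranes, went the other way from LAMA5. It stood at 127 and 100.4 CPM in DMSO, 107 and 83.0 CPM with palbociclib, and 151 and 128.5 CPM with GSK3326595. The GSK3326595 libraries were the highest 2, and the palbociclib and DMSO libraries overlapped. Its log2 fold changes were -0.26 ± 0.136 and 0.30 ± 0.135 (edgeR adjusted p = 0.149 and 0.147). With the replicate number as a block they were 0.00103 and 0.000304, and without palbociclib replicate 1 the palbociclib value was -0.45 (0.0469). Of the alpha chain sum, LAMA1 made up 6.69% in DMSO, 4.54% with palbociclib and 10.7% with GSK3326595. LAMA2, the muscle and nerve alpha chain, ranged from 16.03 to 24.4 CPM and LAMA3, the epidermal one, from 8.504 to 11.6 CPM, neither of them called. With the block LAMA2 was called higher with palbociclib (log2 0.31, edgeR adjusted p = 0.0102).

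With palbociclib the largest fold changes among called laminin genes were those of the beta chains LAMB3 and LAMB2. LAMB2, the beta chain of synaptic and kidney basement membranes, was at 214 and 181 CPM in DMSO, 432 and 376 CPM with palbociclib, and 225 and 194 CPM with GSK3326595. The palbociclib libraries lay well above the other 4, which overlapped. LAMB2 rose 2.05-fold with palbociclib, a log2 fold change of 1.03 ± 0.113 (edgeR adjusted p = 2.45e-05), and with GSK3326595 the value was 0.09 ± 0.113 (edgeR adjusted p = 0.643). LAMB3, a chain of the laminin that anchors the epidermis, was at 58.7 and 65.2 CPM in DMSO, 131 and 138 CPM with palbociclib, and 100.5 and 116 CPM with GSK3326595. The groups did not overlap, with GSK3326595 between DMSO and palbociclib. LAMB3 rose 2.18-fold with palbociclib (log2 1.12 ± 0.0951, edgeR adjusted p = 3.24e-06) and 1.75-fold with GSK3326595 (log2 0.80 ± 0.0955, edgeR adjusted p = 0.000182). LAMA3, its alpha chain partner, was not called in either comparison.

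LAMB1 was at 1218 and 1073 CPM in DMSO, 1202 and 1084 CPM with palbociclib, and 1103 and 972 CPM with GSK3326595, all groups overlapping. Its log2 fold change with palbociclib was -0.0027 ± 0.117 (edgeR adjusted p = 0.988). As a share of the beta chain sum per kilobase, LAMB1 went from 77% in DMSO to 61.6% with palbociclib and 70.4% with GSK3326595. LAMB2 made up 15.7%, 25.8% and 16.8%, and LAMB3 7.28%, 12.7% and 12.8%. These shares have no test of their own. LAMC1 made up 99.0% of the gamma chain sum in DMSO and stood at 1024 and 1022 CPM in DMSO, 1116 and 1171 CPM with palbociclib, and 944 and 990.1 CPM with GSK3326595. LAMC1 was not called against DMSO (edgeR adjusted p = 0.227 and 0.625), and LAMC3 stayed between 0.208 and 0.874 CPM.

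LAMB3, LAMA4 and LAMA5 are the 3 laminin genes called with both inhibitors, LAMB3 higher with each and the other two in opposite directions. Promoter stretches of LAMB3 and of LAMA5, the main alpha chain, are shown for that contrast. LAMB3 has 3 RefSeq starts on the minus strand of chromosome 1, and the most upstream and most downstream are given, chr1:209652467-209652675 and chr1:209651395-209651624. LAMA5 lies on the minus strand of chromosome 20, chr20:62367313-62367562. All are GRCh38.p14 and 5′ to 3′ on the gene's strand, and capitals mark the GC box and, in the downstream LAMB3 stretch, the AP-1 motif TGANTCA.
LAMB3 upstream start: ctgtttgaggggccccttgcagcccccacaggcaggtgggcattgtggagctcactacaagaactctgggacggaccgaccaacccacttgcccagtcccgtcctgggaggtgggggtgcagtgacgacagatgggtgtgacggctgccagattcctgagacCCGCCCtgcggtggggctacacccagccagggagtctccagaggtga
LAMB3 downstream start: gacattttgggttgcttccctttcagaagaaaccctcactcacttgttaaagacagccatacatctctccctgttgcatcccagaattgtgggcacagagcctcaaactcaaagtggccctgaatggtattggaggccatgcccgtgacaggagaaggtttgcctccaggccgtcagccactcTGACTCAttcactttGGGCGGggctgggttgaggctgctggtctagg
LAMA5: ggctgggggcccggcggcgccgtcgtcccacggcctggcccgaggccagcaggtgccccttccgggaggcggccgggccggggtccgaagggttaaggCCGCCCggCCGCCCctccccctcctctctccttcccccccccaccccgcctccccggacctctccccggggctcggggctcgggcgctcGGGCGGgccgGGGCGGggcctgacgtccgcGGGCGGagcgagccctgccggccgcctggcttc
The downstream LAMB3 stretch held the AP-1 letters starting 67 bases before the start and a GC box at 52, and the upstream stretch a GC box at 88. The LAMA5 stretch held 5 GC boxes, at 152, 144, 63, 53 and 33 bases, and no AP-1 letters. G and C made up 82.8% of the LAMA5 stretch, and 64.6% and 53.5% of the upstream and downstream LAMB3 stretches. The window of LAMA4, called in the same directions as LAMA5, held neither motif. The AP-1 letters were in 6.57% of all windows and in 2 of the 33 member starts, that of LAMB3 and that of LAMA3. LAMA3 was not called with either inhibitor. The part of either motif in these changes was not tested. Counts here are per gene, so which LAMB3 start gave the reads was not measured.

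The inhibitors were also compared directly, without the DMSO libraries in the contrast, which tests the difference between them itself. Palbociclib libraries were higher than GSK3326595 libraries in 10 and lower in 3 of the 21 integrin genes, and higher in 4 and lower in 1 of the 11 laminin genes. The 18 members called are 56.2% of the 32 tested. Over all genes 34.8% were called, 16.6% higher and 18.2% lower. The medians were 0.22 for both families and -0.03 for all genes. The laminin receptor chains ITGA3 (log2 1.20 ± 0.104, edgeR adjusted p = 1.22e-05), ITGA7 (1.10 ± 0.186, 0.000847) and ITGB4 (0.78 ± 0.110, 0.000265) were higher with palbociclib. So were ITGB3, ITGB8 and ITGA1, by 0.63 ± 0.0862, 1.00 ± 0.118 and 0.99 ± 0.0995 (edgeR adjusted p = 0.0002, 9.05e-05 and 3.27e-05). ITGAD was higher with palbociclib by 1.67 ± 0.290 (edgeR adjusted p = 0.00102). ITGAX was higher by 1.02 ± 0.289 (edgeR adjusted p = 0.0166, 0.131 without palbociclib replicate 1). ITGA5 was higher by 0.29 ± 0.0852 (edgeR adjusted p = 0.0208), a call lost without palbociclib replicate 1 (0.142), palbociclib replicate 2 (0.112) or GSK3326595 replicate 1 (0.104). ITGA11 was higher by 0.62 ± 0.217 (edgeR adjusted p = 0.0431), a call lost with library totals, by DESeq2 and without any of the 4 libraries compared (adjusted p from 0.0554 to 0.346).

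Among laminins, LAMA5 (log2 0.82 ± 0.122, edgeR adjusted p = 0.000371), LAMA4 (0.70 ± 0.0876, 0.000119) and LAMB2 (0.95 ± 0.113, 9.26e-05) were higher with palbociclib than with GSK3326595. LAMB3 was higher by 0.32 ± 0.0930 (edgeR adjusted p = 0.0198), lost without palbociclib replicate 1 (0.0673), palbociclib replicate 2 (0.145) or GSK3326595 replicate 1 (0.134). LAMA1 was lower with palbociclib by a log2 of -0.56 ± 0.136 (edgeR adjusted p = 0.00749), lost without palbociclib replicate 2 (0.095). The integrin genes lower with palbociclib than with GSK3326595 were ITGB2, ITGA9 and ITGB5. ITGB2 differed by -1.84 ± 0.425 (edgeR adjusted p = 0.00565, 0.0772 without palbociclib replicate 1), and ITGA9 by -1.57 ± 0.391 (edgeR adjusted p = 0.00845). The ITGA9 call was lost without palbociclib replicate 1 (0.0551) or 2 (0.0663). ITGB5 differed by -0.36 ± 0.0903 (edgeR adjusted p = 0.00876), lost without palbociclib replicate 2 (0.121) or GSK3326595 replicate 2 (0.0585). With the replicate number as a block, LAMC1 (log2 0.24, edgeR adjusted p = 0.00684), ITGA6 (0.22, 0.00826) and ITGA10 (-0.27, 0.0174) were called as well. LAMC1 was also called with library totals (0.0198) and by DESeq2 (0.0219), and ITGA6 with library totals (0.0377). Without GSK3326595 replicate 2, ITGA6 (0.0445) and ITGA10 (-0.60, 0.0149) were called. ITGA2 and ITGB7, higher with both inhibitors against DMSO, differed between them by -0.13 ± 0.0899 and -0.08 ± 0.138 (edgeR adjusted p = 0.309 and 0.705).

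Receptors and ligands were set side by side as the summed level of each family. The 26 integrin genes summed to 3611 and 3558 CPM in DMSO, 4084 and 3893 CPM with palbociclib, and 2730 and 2884 CPM with GSK3326595. The 12 laminin genes summed to 4107 and 3689 CPM in DMSO, 4738 and 4507 CPM with palbociclib, and 3581 and 3343 CPM with GSK3326595. Both sums were highest with palbociclib and lowest with GSK3326595, with no overlap between groups. The ratio of laminin to integrin level was 1.137 and 1.037 in DMSO, 1.160 and 1.158 with palbociclib, and 1.312 and 1.159 with GSK3326595. The GSK3326595 mean of 1.235 was 1.16 without GSK3326595 replicate 1 and 1.31 without replicate 2, and its lower library lay within the palbociclib values. Per kilobase of exon the order of the families turned, and the ratio was 0.857 ± 0.0518 in DMSO, 0.953 ± 0.00686 with palbociclib and 0.987 ± 0.0763 with GSK3326595 (SD, n = 2), with a value above 1 in GSK3326595 replicate 1 alone (1.041). The sums carry no test, and a few abundant genes (ITGA3, LAMA5, LAMB1 and LAMC1) make up much of each.

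**Figure D3:**
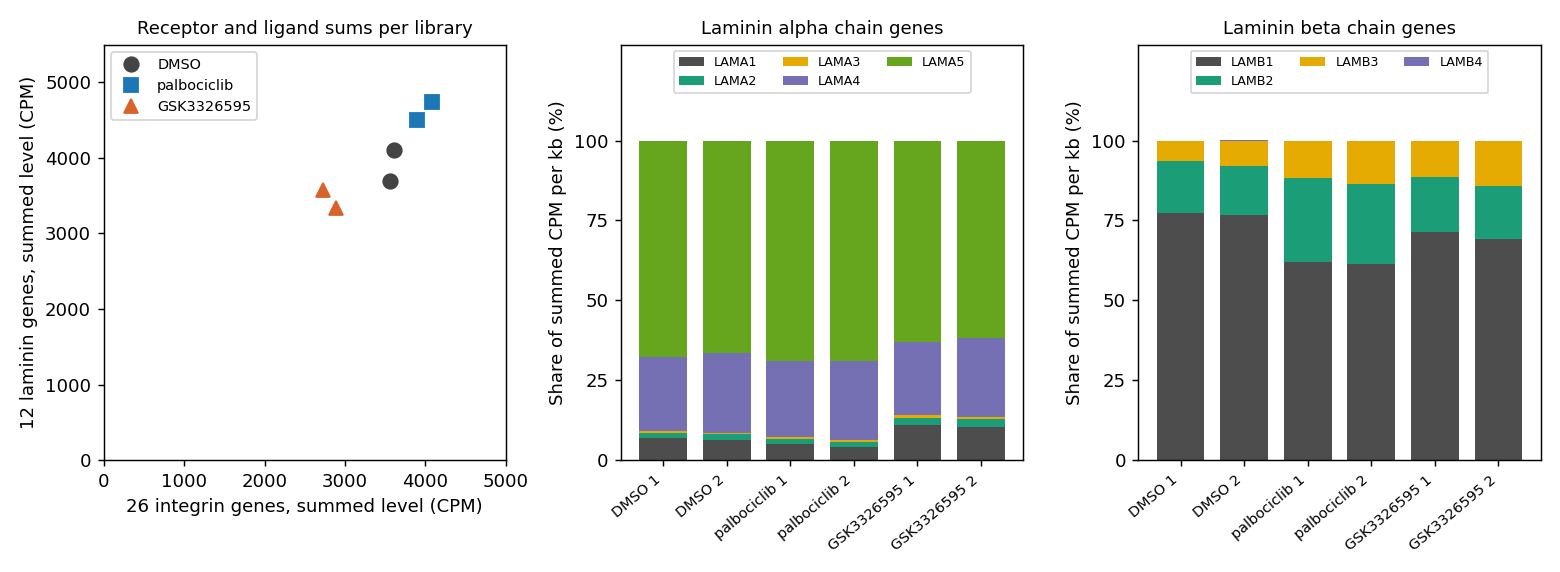
Left, summed level of the 12 laminin genes against that of the 26 integrin genes in each library, in CPM; middle and right, the percent of the summed CPM per kilobase held by each laminin alpha and beta chain gene in each library. The palbociclib squares lie highest on both axes and the GSK3326595 triangles lowest, and the LAMB1 part of the beta bar is 77% in DMSO and 61.6% with palbociclib.

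Other genes of integrin adhesion and of the matrix were read from 4 lists. Of 36 focal adhesion and integrin adaptor genes tested, 11 rose and 6 fell with palbociclib, and 5 rose and 1 fell with GSK3326595. These are 47.2% and 16.7% of the list, beside 39.5% and 18.8% of all genes. TLN2, a talin that links integrin tails to actin, rose from 25.5 and 20.98 CPM in DMSO to 85.0 and 81.3 CPM with palbociclib (log2 1.84 ± 0.109, edgeR adjusted p = 2.49e-07) and to 35.4 and 36.4 CPM with GSK3326595 (0.63 ± 0.111, 0.00238). CD82, a tetraspanin that associates with laminin-binding integrins, rose with both (log2 1.48 and 1.20, edgeR adjusted p = 3.34e-05 and 0.000654). LIMS1, which ties integrin-linked kinase to the adhesion, and KANK2, which binds talin, fell with palbociclib (log2 -0.68 and -0.48, edgeR adjusted p = 0.000412 and 0.000517). CD9, another integrin-associated tetraspanin, fell with GSK3326595 (log2 -0.50, edgeR adjusted p = 0.00414). The median of the list was 0.06 with palbociclib, beside -0.02 for all genes.

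Of 21 other basement membrane genes tested, 9 rose and 2 fell with palbociclib (median 0.42), and 3 rose and 3 fell with GSK3326595, or 52.4% and 28.6% beside 39.5% and 18.8% of all genes. SPARC, a collagen-binding matrix protein, and COL4A5, a chain of network-forming collagen, rose with palbociclib (log2 1.36 and 1.37, edgeR adjusted p = 1.97e-05 and 5.75e-05). SMOC1 and NID1, a SPARC relative and the nidogen that bridges laminin to collagen, fell (log2 -0.91 and -0.56, edgeR adjusted p = 0.000114 and 0.000517). With GSK3326595, NTN4, a netrin that binds laminin gamma chains, rose (log2 0.45, edgeR adjusted p = 0.00794) but was not called without DMSO replicate 1 (0.0534) or 2 (0.0514), and SPARC rose (0.61, 0.0116), lost without DMSO replicate 1 (0.107). AGRN, the laminin-binding proteoglycan agrin, and TINAGL1 had log2 fold changes of -0.40 and -0.30 (edgeR adjusted p = 0.0302 and 0.0345). The AGRN call was lost without DMSO replicate 1, GSK3326595 replicate 2 or either palbociclib library (adjusted p from 0.0544 to 0.153), and that of TINAGL1 without any library but GSK3326595 replicate 2 (0.0756 to 0.184).

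Of 10 non-integrin laminin receptors tested, 2 rose and 2 fell with palbociclib, and 3 rose and 1 fell with GSK3326595. That is 40% with each inhibitor, near the 39.5% of all genes called with palbociclib and beside 18.8% with GSK3326595. SDC2, a syndecan proteoglycan, went from 8.59 and 9.21 CPM in DMSO to 22.2 and 24.6 CPM with palbociclib (log2 1.39 ± 0.128, edgeR adjusted p = 6.15e-06). SGCE and SDC1, a sarcoglycan and another syndecan, fell with palbociclib (log2 -0.80 and -0.62, edgeR adjusted p = 0.000472 and 0.00152). SDC3 rose (log2 0.51, edgeR adjusted p = 0.00432), lost without palbociclib replicate 2 (0.0683). The calls named by rule for GSK3326595, SDC2, RPSA and BCAM, had adjusted p of 0.0161, 0.0376 and 0.0433 by edgeR, and each was lost without DMSO replicate 1 (0.105, 0.288 and 0.222).

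Ligands of the other integrins moved most often of the 4 lists by count. Of 27 tested, 13 rose and 5 fell with palbociclib, and 9 rose and 4 fell with GSK3326595, which are 66.7% and 48.1% of the list beside 39.5% and 18.8% of all genes. FN1, the fibronectin read by ITGA5, rose from 367 and 353 CPM in DMSO to 843 and 1036 CPM with palbociclib (log2 1.38 ± 0.112, edgeR adjusted p = 2.27e-06). SPP1, the osteopontin read by ITGAV and ITGA9, rose from 9.31 and 13.5 CPM to 62.4 and 55.9 CPM (log2 2.37 ± 0.196, edgeR adjusted p = 2.66e-06). COL1A1 fell with palbociclib and rose with GSK3326595 (log2 -1.07 and 1.05, edgeR adjusted p = 9.48e-05 and 0.000197). COL6A2 fell with palbociclib (log2 -0.92, edgeR adjusted p = 9.57e-05). With GSK3326595, THBS1, a thrombospondin, rose (log2 0.97, edgeR adjusted p = 0.000698), and the collagen chains COL6A3 and COL6A1 fell (log2 -1.14 and -0.91, edgeR adjusted p = 3e-05 and 7.74e-05).

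**Figure D4:**
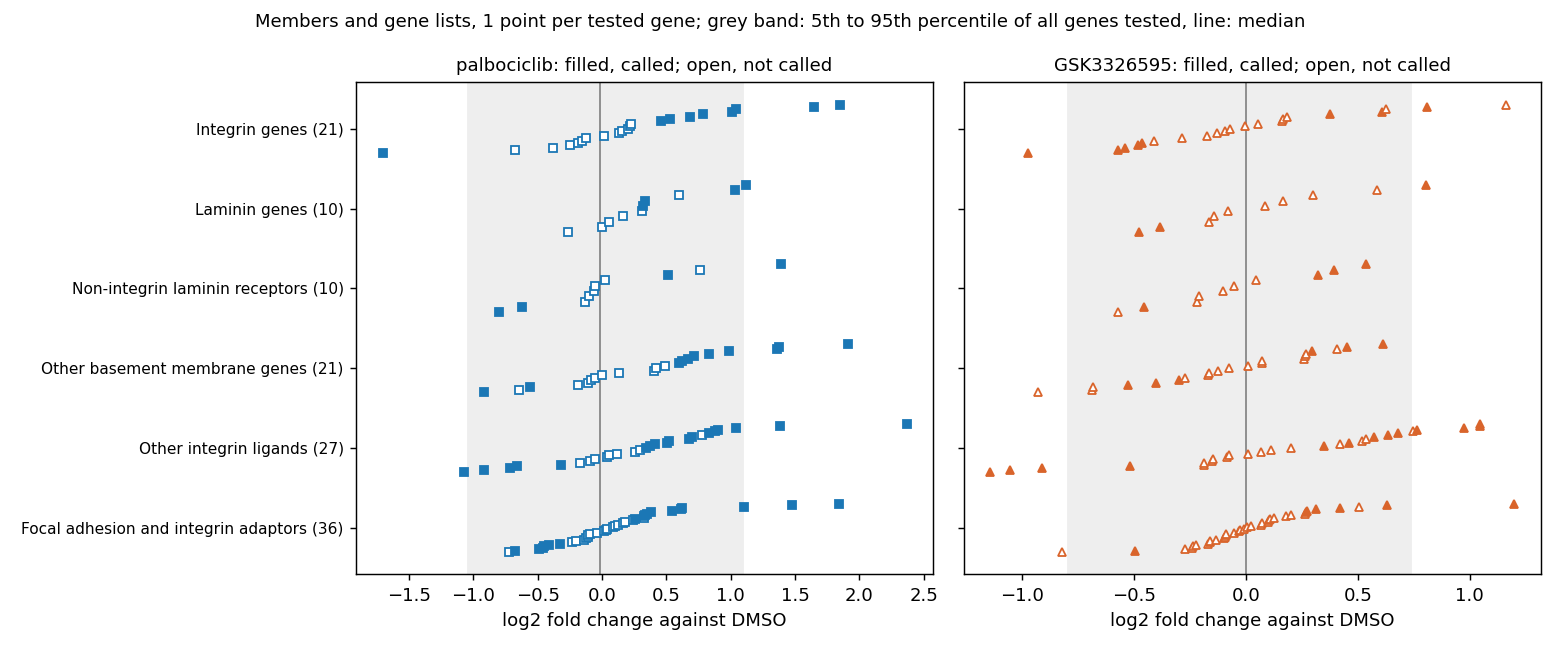
Log2 fold change against DMSO of each tested gene in the integrin and laminin families and the 4 lists, palbociclib on the left and GSK3326595 on the right; filled symbols are called, the grey band spans the 5th to 95th percentile of all genes tested and the line is their median. Most members lie inside the band. With palbociclib, ITGAD, ITGAX and LAMB3 lie to its right and ITGA9 to its left. With GSK3326595, ITGA2, LAMB3 and ITGB2 (not called) lie to its right and ITGA3 to its left.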

How the data were processed

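Read counts per gene were measured in 6 A375 libraries. The authors deposited raw counts per NCBI Gene ID, 1 table per library, with no normalization. Per the submitters' processing notes the tools were CASAVA 1.8.2, cutadapt 1.7, HISAT2, featureCounts 1.6.2 and limma, on hg38. For annotation, strand setting and multiply aligned reads, settings are not given in the sources used. IDs were matched to symbols in the RefSeq gene table (27745 of 28395), and exon lengths and overlaps came from GENCODE on GRCh38. Per the labels, groups follow the treatment.

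Counts were fitted with edgeR 4.0.16 in R 4.3.3: filterByExpr with a minimum count of 10, TMM scaling, 1 coefficient per group over all 6 libraries (3 residual degrees of freedom), and a two-sided quasi-likelihood F test. Each SE was obtained from the fold change and its F (size of the log2 value over root F). Alternatives were DESeq2 1.42.0, other scalings and filters, only the groups compared, each library left out, and a replicate block. Libraries with the same replicate number deviated together from their group means (correlations 0.179, 0.341 and 0.14 over 16381 genes). Over the 10147 genes with a mean of 10 CPM or more the correlations were 0.422, 0.495 and 0.38. The main fit, which sets the calls, leaves this pairing out. Values with the replicate number as a block are given where they change a call. The labels do not say whether replicates were separate cultures, and p-values reflect only how these libraries vary, which may be technical.

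Every tested member is named except 1, which is counted in the totals but not reported here, and from each other list up to 2 called genes per direction and inhibitor with the smallest p. The marker lists follow the same rule, and some markers without a call are named for their presence or absence. The members and lists were chosen with earlier results of these data known. Protein sequences were not used here.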

Additional observations from a re-analysis of the deposited data

How the results depend on the processing

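Over 13 alternatives per comparison, 8 of 13 palbociclib calls among the members, 6 of 11 GSK3326595 calls and 10 of 18 calls between the inhibitors held in each one, and no called member changed sign. DESeq2 size factors and library totals moved the median of all genes by less than 0.1 (log2). Treating the replicate number as a block raised the calls over all genes with GSK3326595 from 3081 to 5769. In the block fit the integrin genes lower with palbociclib were 4 and the laminin genes lower 2, with GSK3326595 the integrin genes higher were 5 and lower 8 and the laminin genes higher 2, and the laminin genes lower between inhibitors were 2. It ended no call among the members. The integrin genes lower with palbociclib were 2 with library totals and 2 with only the groups compared. LAMB1 with palbociclib turned from -0.0027 to 0.0174 with DESeq2 size factors, to 0.0195 by DESeq2 and to 0.0005 with a filter at 1 CPM, the cause of which was not tested.

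Leaving out each library in turn gave ranges of 1 to 3 integrin genes lower, 2 to 4 laminin genes higher and 0 to 1 lower with palbociclib. With GSK3326595 they were 1 to 3 integrin genes higher, 4 to 6 lower, 1 to 1 laminin genes higher and 0 to 2 lower, and between inhibitors 1 to 3 integrin and 0 to 2 laminin genes lower. All genes called ranged from 4007 to 7259 with palbociclib, 1765 to 3230 with GSK3326595 and 3312 to 5542 between inhibitors, and the GSK3326595 ratio from 1.16 to 1.31. Members without a call changed sign when a library was left out. With palbociclib the log2 ranges were -0.36 to 0.18 for ITGA10, -0.12 to 0.27 for LAMA3, -0.0443 to 0.0791 for ITGB5 and -0.0755 to 0.0882 for LAMB1. With GSK3326595 they were -0.24 to 0.48 for ITGA10, -0.34 to 0.12 for ITGA7, -0.0394 to 0.37 for ITGAD, -0.36 to 0.0329 for LAMA3, -0.11 to 0.0811 for ITGAV, -0.41 to 0.19 for ITGA9, -0.0313 to 0.19 for LAMB2, -0.0336 to 0.14 for ITGA1 and -0.21 to 1.499 for LAMC3. Between inhibitors they were -0.60 to 0.13 for ITGA10, -0.0767 to 0.14 for ITGB1, -0.20 to 0.0738 for ITGB7, -0.12 to 0.17 for ITGAE, -0.0109 to 0.30 for LAMA2 and -0.50 to 0.82 for LAMC3. Where a group is left with 1 library, that library is assumed to vary like the others. With 2 libraries per group, changes smaller than those called may not be detectable, and members under a few CPM, such as ITGA9, ITGB2 and LAMC3, rest on few reads.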

Other observations

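Several members are close neighbours on GRCh38. ITGAM, ITGAX and ITGAD, alpha chains that share the beta chain ITGB2, follow each other on chromosome 16 with gaps of 22.3 and 10.3 kb. ITGAX and ITGAD rose with palbociclib, while ITGAM had at most 3 reads in any library. LAMB1 and LAMB4 lie 8.5 kb apart on chromosome 7, and LAMB4 had 4 to 9 reads per library beside 972 CPM or more of LAMB1.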
